A study of Mus musculus with 19 samples.

Results

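The genes described here copy DNA and divide the cell. The list named 52 mouse genes, chosen by name with earlier results of these data known. Of them, 50 had a row of their own among the 22180 genes measured on 19 arrays. They fall into 17 replication genes, 7 regulators of the passage from G1 to S phase and 26 mitotic genes. Ccnb1 and Ccne2, a mitotic and a G1 to S cyclin, could not be matched to a row with a single symbol, so their expression is not analysed here. The promoters below were looked up for all 52 listed genes, Ccnb1 included.

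The study asked what MED1 does in fat cells; MED1 belongs to Mediator, the complex between transcription factors and RNA polymerase II. Its cell experiment compared 3T3-L1, a mouse fibroblast-like line that becomes fat cells after hormonal stimulation, with MED1 knockout 3T3-L1 made by CRISPR/Cas9. The wild-type cells were the parental line, and the knockout RNA was pooled from several individual clones, so clone-to-clone spread cannot be seen. There were 2 arrays of each genotype at day 0 and 2 at day 2, by title. Embryonic interscapular brown fat at E17.5 came from Myf5CreMed1f/w controls (3 arrays), which carry the Cre and 1 floxed allele, and from Myf5CreMed1f/f knockouts (4 arrays). Myf5-Cre is active in precursors of skeletal muscle and brown fat, so other cells of the tissue keep the gene. Adult interscapular brown fat at 10 weeks came from Med1f/f controls without Cre (2 arrays) and AdipoqCreMed1f/f knockouts (2 arrays), in which Cre is active in fat cells. Nothing in the labels says whether replicates were separate cultures or animals. The p-values therefore cover array-to-array spread alone, and that spread may be technical.

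A dividing cell passes from G1, when D cyclins with Cdk4 and then cyclin E with Cdk2 release E2F transcription factors, into S phase. There the Mcm helicase, loaded on DNA by Cdc6 and Cdt1, opens the origins, and Pcna, the sliding clamp, holds the polymerases on the template. A second wave of genes, driven by Mybl2, Foxm1 and MuvB complexes, supplies the mitotic cyclins, kinases, spindle motors and centromere proteins. In resting cells the DREAM complex holds these genes back. In confluent 3T3-L1 cells the hormone cocktail is known to restart division, called mitotic clonal expansion, before fat genes come on. Brown fat precursors divide in the fetus, and mature fat cells are mostly out of cycle.

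The promoters of the list carried the motifs by which these 2 waves are usually told apart. RefSeq promoters (GRCm38.p6, 250 bases before to 50 after the start) were found for 40 of the 52 listed genes, 43 promoters in all. An E2F-type motif on either strand, spelled TTGGCGC in its usual form and otherwise TTGCCGC, with TTCGCGC also counted and likewise TTCCCGC, lay in 9 of 14 promoters of replication genes (64.3%), in 3 of 23 of mitotic genes (13.0%) and in 9.57% of all 32817 promoters. The CHR element (TTTGAA or TTCGAA, either strand), through which MuvB complexes bind, lay in 18 of 23 mitotic promoters (78.3%), in 3 of 14 replication promoters (21.4%) and in 19.2% of all. The NF-Y box CCAAT, on either strand, lay in 20 mitotic promoters (87.0%), in 10 replication promoters (71.4%) and in 37.4% of all. Both CHR and CCAAT were present in 18 mitotic promoters, against 7.51% of all promoters. Of 6 promoters of G1 to S genes 1 held an E2F-type motif, 0 held CHR and 2 held CCAAT. The motifs were searched on their own, and 2 E2F-type matches on opposite strands can overlap. A match is a description of letters, not of binding.

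The 150 bases before the start are shown for 9 genes that the results below turn on or that show each motif, in the direction of transcription, with motif letters in capitals. Mcm5 and Mcm6 show the E2F type beside CCAAT, Cdk1 shows all 3 motifs, and Top2a, Ube2c, Cdc20 and Kif11 show CHR beside CCAAT. A motif on the other strand appears as its reverse complement. Pcna and Plk1 show CCAAT alone in this window.
Mcm5 (chr8:75109359-75109508, plus strand): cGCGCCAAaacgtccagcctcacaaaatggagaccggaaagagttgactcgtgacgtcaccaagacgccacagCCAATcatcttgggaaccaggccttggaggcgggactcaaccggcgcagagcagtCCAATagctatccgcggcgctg
Mcm6 (chr1:128359706-128359855, minus strand): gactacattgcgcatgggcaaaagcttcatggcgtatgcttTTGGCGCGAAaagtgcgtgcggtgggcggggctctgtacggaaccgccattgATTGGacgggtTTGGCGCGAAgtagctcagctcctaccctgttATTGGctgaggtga
Pcna (chr2:132253181-132253330, minus strand): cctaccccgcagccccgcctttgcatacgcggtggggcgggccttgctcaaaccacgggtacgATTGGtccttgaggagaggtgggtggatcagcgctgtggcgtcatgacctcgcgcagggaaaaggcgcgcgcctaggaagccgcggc
Cdk1 (chr10:69352913-69353062, minus strand): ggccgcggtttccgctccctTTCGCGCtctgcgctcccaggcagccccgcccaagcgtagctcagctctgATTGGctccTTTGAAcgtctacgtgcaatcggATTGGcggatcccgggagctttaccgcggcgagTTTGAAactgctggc
Top2a (chr11:99024190-99024339, minus strand): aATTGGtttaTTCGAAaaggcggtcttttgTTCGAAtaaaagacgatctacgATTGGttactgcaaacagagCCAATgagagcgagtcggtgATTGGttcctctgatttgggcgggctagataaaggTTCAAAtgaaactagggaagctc
Ube2c (chr2:164769779-164769928, plus strand): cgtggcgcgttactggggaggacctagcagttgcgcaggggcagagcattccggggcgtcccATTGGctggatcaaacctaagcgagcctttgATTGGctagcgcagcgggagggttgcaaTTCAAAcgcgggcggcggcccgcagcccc
Cdc20 (chr4:118437344-118437493, minus strand): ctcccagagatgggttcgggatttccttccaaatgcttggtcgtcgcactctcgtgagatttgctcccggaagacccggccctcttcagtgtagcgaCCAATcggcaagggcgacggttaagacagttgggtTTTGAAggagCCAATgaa
Kif11 (chr19:37376232-37376381, plus strand): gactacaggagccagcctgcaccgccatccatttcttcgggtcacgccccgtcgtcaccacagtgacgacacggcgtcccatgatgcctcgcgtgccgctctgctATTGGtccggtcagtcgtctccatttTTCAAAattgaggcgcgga
Plk1 (chr7:122159285-122159434, plus strand): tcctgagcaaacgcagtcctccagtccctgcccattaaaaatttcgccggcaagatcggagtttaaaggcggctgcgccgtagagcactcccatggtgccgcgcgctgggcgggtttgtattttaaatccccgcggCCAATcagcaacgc

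Values are log2 signals as the authors deposited them, in which 1 unit is a doubling, and differences are log2 fold changes with their standard error. Each cell array had a median over all rows between 4.69 and 4.79, against 3.49 to 3.57 for E17.5 and 2.87 to 2.89 for adult tissue, so levels are compared within an experiment only. Tests used limma across all 22180 genes with Benjamini-Hochberg adjustment, and a gene is called changed at an adjusted p under 0.05. Med1 itself had 8.23 and 8.48 in wild-type and 7.07 and 7.16 in knockout cells on day 0, with -1.31 ± 0.08 over all pairs (adjusted p = 0.0011). In E17.5 brown fat Med1 overlapped between the groups (control 6.94 to 7.82, knockout 6.88 to 7.10, fold change -0.35 ± 0.19, adjusted p = 0.37). In the adult it was 5.99 and 6.90 in controls and 5.13 and 5.28 in knockouts (-1.24 ± 0.31, adjusted p = 0.19). Whether the probes lie in the deleted exons was not analysed here. The tissue label held: adipocyte markers such as Adipoq, and the brown fat marker Ucp1, were well above the arrays' middle gene in both brown fat experiments.

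One conflict in the labels touches every comparison of days. In 4 of the 8 arrays of cells 1 day is given by the title and another by the source label. The replicate 1 arrays titled day 2 are labelled as unstimulated, and the replicate 2 arrays titled day 0 as stimulated for 2 days. Titles are used here. By title, both wild-type day 2 arrays lay above both day 0 arrays for all 7 adipocyte markers, and for 26.6% of all genes. Pparg, 1 of the 7, read 5.76 to 5.93 on day 0 and 7.80 to 7.94 on day 2. In knockout cells 3 of the 7 lay above and 1 below, against 24.6% and 23.3% of all genes. With the source label instead, 0 of all genes passed the test in either genotype's day comparison. Wild-type and knockout arrays of the same title day and replicate carry the same source label day, so the 4 pairs are the same under either.

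In wild-type cells all 17 replication genes had a positive fold change from day 0 to day 2, where 55.3% of all genes did. Their median was 0.53 against 0.03 for all genes, and 8 of the 17 rose (47.1%, against 3.44% of all genes called higher). Of the mitotic genes 23 of 26 had positive fold changes, with a median of 0.39, and 1, Top2a, rose. Of the 7 G1 to S regulators, Ccne1 rose and the D cyclins Ccnd1 and Ccnd2 fell. In all, 10 of 50 members were called higher and 2 lower, where 9.07% of all genes were called in either direction and 5.64% were called lower.

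Pcna stood at 8.12 and 8.33 on day 0 and at 9.91 and 9.76 on day 2 in wild-type cells, a rise of 1.61 ± 0.15 (adjusted p = 0.00029). Both day 2 arrays lay far above both day 0 arrays. Rrm2, the inducible subunit of ribonucleotide reductase, which makes the building blocks of DNA, went from 5.06 and 5.43 to 6.47 and 6.49 (1.23 ± 0.21, adjusted p = 0.0062). Tyms, thymidylate synthase, went from 6.82 and 7.03 to 7.74 and 7.38 (0.64 ± 0.15, adjusted p = 0.029). Rrm1, the constant subunit of the same reductase as Rrm2, did not pass the test (0.03 ± 0.14, adjusted p = 0.93). Tk1, thymidine kinase, did not pass it either (0.43 ± 0.25, adjusted p = 0.37), and its 2 day 2 arrays, at 6.74 and 6.07, lay on both sides of its higher day 0 array at 6.31.

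Among the genes that license and fire origins, Cdc6, which helps to load the helicase, rose by 1.12 ± 0.20 (adjusted p = 0.0076), from 4.48 and 4.91 to 5.77 and 5.86. Of the 6 helicase subunits, 4 rose: Mcm7 by 0.79, Mcm5 by 0.77, Mcm3 by 0.54 and Mcm6 by 0.53, with adjusted p between 0.023 and 0.047. Mcm6 went from 7.39 and 7.45 to 7.91 and 7.99, and Mcm5 from 6.16 and 6.63 to 7.11 and 7.23, with no overlap between the days. Mcm2 and Mcm4 had 0.34 and 0.37 and were not called. Cdt1, the partner of Cdc6, had 0.54 ± 0.16 (adjusted p = 0.074), and its inhibitor Gmnn had 0.23 ± 0.15 (adjusted p = 0.43).

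At the G1 to S step the cyclins moved in opposite directions. Ccne1, which starts S phase with Cdk2, went from 5.77 and 5.73 to 6.48 and 6.44 (0.71 ± 0.12, adjusted p = 0.0056). Ccnd1, the D cyclin that growth factors raise early in G1, fell from 8.85 and 9.04 to 7.99 and 8.43 (-0.74 ± 0.18, adjusted p = 0.033). Ccnd2 fell from 10.26 and 10.44 to 9.66 and 9.59 (-0.73 ± 0.13, adjusted p = 0.0088). Ccnd3, the remaining D cyclin, had 0.31 ± 0.23 and was not called, nor were Cdk4 (-0.19), Cdk2 (0.09) and E2f1 (-0.16).

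Top2a, which untangles replicated chromosomes, had the highest day difference of the 50 genes. Its wild-type arrays read 6.49 and 7.38 on day 0 and 9.68 and 9.28 on day 2, a rise of 2.54 ± 0.28 (adjusted p = 0.00061). No other mitotic gene passed the test. Bub1b, a spindle checkpoint kinase, came nearest with 1.16 ± 0.33 (adjusted p = 0.058). Ube2c had 0.74, Kif11 0.68, Ccna2 0.51, Aurkb 0.50 and Cdk1 0.32, none of them called. Plk1 (0.22), Cdc20 (0.15), Mki67 (0.08), Cenpf (-0.05), Foxm1 (-0.15) and Kif23 (-0.24) had values below or close to their standard errors.

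The mitotic genes had a larger median difference between the 2 day 0 replicates than between the days. In wild-type cells all 26 were higher in day 0 replicate 2 than in replicate 1, with a median difference of 0.84, and in knockout cells 23 of 26 were, with a median of 0.67. For replication genes these medians were 0.22 and 0.25. Mki67, the proliferation antigen, read 7.17 and 8.08 in the wild-type day 0 replicates, and 7.90 and 7.52 on day 2. Kif23, a cytokinesis motor, read 5.75 and 7.0 on day 0, and Cenpe, a kinetochore motor, 6.10 and 7.30. The day 2 replicates differed by -0.19 and -0.22 (medians of mitotic genes in wild-type and knockout cells). The day 0 replicate 2 arrays are among those whose source label names the other day. In wild-type cells their adipocyte markers lay below both day 2 arrays, as given above. What set their mitotic genes apart was not tested.

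The day change of mitotic genes therefore depended on which day 0 arrays were counted. Within replicate 1 all 26 mitotic genes were higher on day 2 in wild-type cells (median 0.94), and within replicate 2 only 12 of 26 were (median -0.05). The replication genes had 0.59 and 0.45 in the same 2 comparisons, with 15 and 16 of 17 positive. Leaving out day 0 replicate 2 of both genotypes gave a mitotic median of 0.85, and leaving out replicate 1 of both gave 0.07. Pcna, Top2a, Rrm2 and Ccne1 were called in wild-type cells whichever of the 8 arrays was left out. Tyms kept its call without 1 of the 8, Mcm3 and Mcm6 without 2, Mcm5 and Ccnd1 without 3, and Cdc6, Mcm7 and Ccnd2 without 6. Over those 8 fits the median of the members ran from 0.16 to 0.69.

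**Figure D1:**
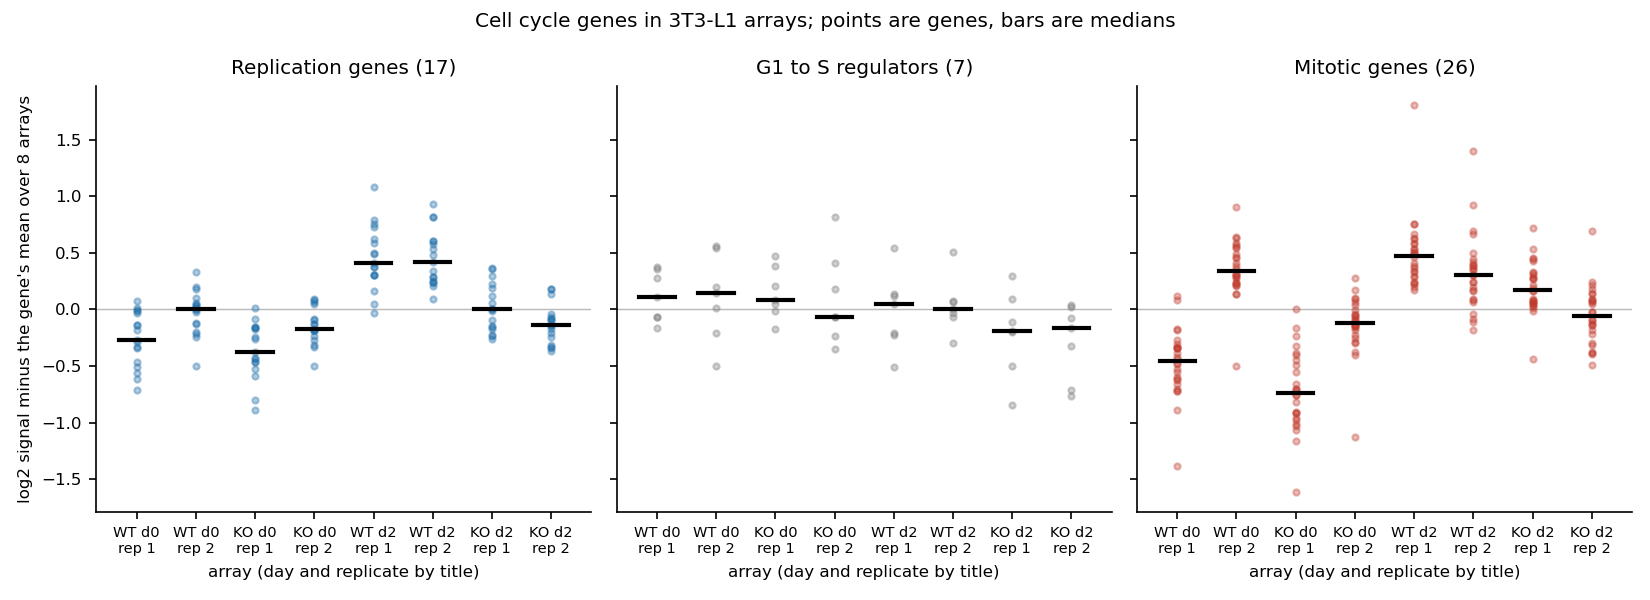
Log2 signal of each gene minus its own mean over the 8 cell arrays (y axis), for every array by title (x axis), in 3 panels of 17 replication, 7 G1 to S and 26 mitotic genes, with points for genes and bars for the median. Replication genes sit highest in the wild-type day 2 arrays, while mitotic genes sit low in both day 0 replicate 1 arrays and higher in the day 0 replicate 2 arrays.

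In knockout cells 12 of 17 replication genes had positive fold changes with the day (52.7% of all genes did), with a median of 0.15 against 0.01 for all genes, and 1, Pcna, rose. In all 2 members were called higher and 2 lower. Of all genes 5.7% were called, 2.14% higher and 3.57% lower. The mitotic genes had a median of 0.37 (25 of 26 positive), with Top2a again called. Pcna read 8.03 and 8.33 on day 0 and 9.19 and 8.97 on day 2 (0.90 ± 0.15, adjusted p = 0.0094). Top2a read 6.26 and 6.75 on day 0 and 8.60 and 8.57 on day 2 (2.08 ± 0.28, adjusted p = 0.0027). Both were higher on day 2 in both arrays, as in wild-type cells.

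Both D cyclins that fell in wild-type cells also fell in knockout cells. Ccnd1 went from 8.97 and 9.31 to 7.65 and 7.73 (-1.45 ± 0.18, adjusted p = 0.0017), and Ccnd2 from 10.27 and 10.29 to 9.38 and 9.17 (-1.0 ± 0.13, adjusted p = 0.0025). These 2 calls held without each of the 8 arrays in turn. Ccne1, called in wild-type cells, had 0.06 ± 0.12 here (adjusted p = 0.87), with 5.76 and 5.70 on day 0 and 5.82 and 5.77 on day 2. Rrm2 had 0.75 ± 0.21 (adjusted p = 0.079), Mcm5 0.54 (0.21), Cdc6 0.44 (0.30), Tyms 0.15 (0.71) and Mcm6 0.14 (0.68), where parentheses hold adjusted p. Gins2, part of the active helicase, had -0.28, and Mcm2 had -0.07. Without day 0 replicate 2 of both genotypes the mitotic median was 0.79. Over the 8 fits without 1 array it ran from 0.15 to 0.79, and the median of the members from 0.12 to 0.49.

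Whether the day change itself differed between the genotypes was tested as an interaction. No member was called (limma, 0 of 22180 genes), and 7 members, all with a lower day change in knockout cells, had an unadjusted p under 0.05, against 2.25% of all genes lower. All 17 replication genes had a negative difference (50.9% of all genes did), with a median of -0.39, while the mitotic median was 0.12 (16 of 26 positive) and the median of all genes 0. By gene the differences were -0.64 ± 0.16 for Ccne1 (adjusted p = 0.82), -0.71 ± 0.22 for Pcna, -0.71 ± 0.25 for Ccnd1 and -0.68 ± 0.28 for Cdc6 (adjusted p = 1 for these 3). Rrm2 and Tyms each had -0.48, Mcm6 -0.39, Top2a -0.46 and Plk1 0.15, none of them called. Without wild-type day 0 replicate 2 the mitotic median was -0.28, in a fit that kept knockout day 0 replicate 2. Its sign thus depended on the arrays counted. Within replicate 1 the mitotic day medians were 0.94 in wild-type and 0.95 in knockout cells, and within replicate 2 -0.05 and 0.05.

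**Figure D2:**
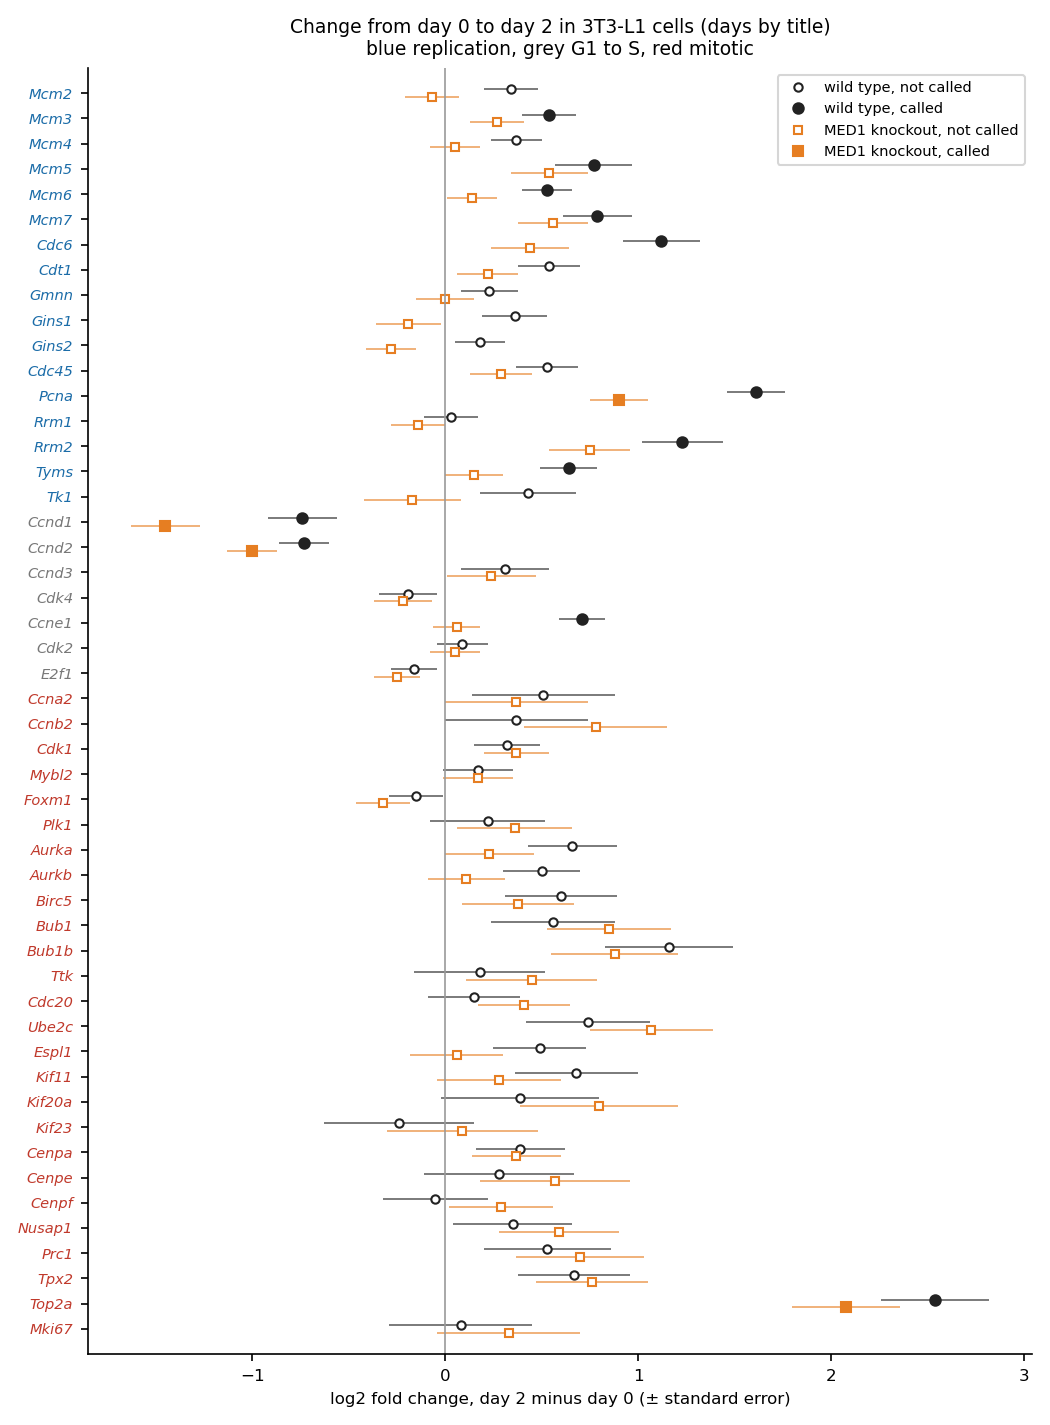
Log2 fold change from day 0 to day 2 (x axis, with standard error) for each of the 50 genes (y axis, coloured by class), in wild-type cells (circles) and knockout cells (squares), filled where the adjusted p is under 0.05. Most replication genes lie further right in wild-type than in knockout cells, Top2a is the rightmost in both, and Ccnd1 and Ccnd2 lie left of 0 in both.

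Between the genotypes 1 member, Plk1, was called, and most of the others had small negative values. Over the 4 pairs of arrays 48 of 50 members had a negative fold change, with a median of -0.31 against 0 for all genes, of which 50.2% were negative. Plk1 is the polo kinase that drives entry into mitosis, and 0.212% of all genes were called lower. In 29 of the 50 the knockout array was lower in all 4 pairs, against 10.8% of all genes. At an unadjusted p under 0.05, 36 members were lower, against 6.72% of all genes. The medians were -0.32 for replication, -0.34 for mitotic and -0.16 for G1 to S genes.

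Plk1 read 6.47 against 5.74 (wild type against knockout) in the first pair of day 0, 7.19 against 6.60 in the second, 7.14 against 6.74 in the first of day 2 and 6.95 against 6.33 in the second. The knockout array was the lower in every pair, by 0.59 ± 0.08 on average (fold change -0.59, adjusted p = 0.046). Without any 1 of the 4 pairs Plk1 was no longer called and its fold change stayed between -0.65 and -0.54. Top2a had the lowest fold change (-0.66 ± 0.13, adjusted p = 0.11). Mcm6 had -0.56 ± 0.11 (0.11), Birc5, the survivin subunit of the chromosomal passenger complex, -0.54 ± 0.10 (0.11), Mki67 -0.46 (0.13), Foxm1 -0.42 (0.18), Aurkb -0.41 (0.27) and Pcna -0.40 (0.34). None of these 7 genes was called. All but Aurkb were lower in the knockout in all 4 pairs, though Pcna read 8.33 in both arrays of the second day 0 pair. Aurkb was higher by 0.07 in the first pair of day 0. For Pcna the day 0 pairs differed little (8.12 against 8.03 and 8.33 against 8.33), and the day 2 pairs carried its value. Ccnd3 (0.09 ± 0.08) and Cdk4 (0.05 ± 0.08) were the 2 genes with positive values.

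The remaining panel genes lay between these extremes. Kif11, a spindle motor, had -0.38, Rrm2 -0.37, Ccne1 -0.34, Mcm5 -0.32 and E2f1 and Cdk1 -0.27 each. Ccna2 had -0.25, Cdc20 -0.23, Ccnd2 -0.21, Tyms -0.19, and Ccnd1 and Cenpf -0.16 each. No adjusted p of these was under 0.05.

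The genotype difference of replication genes was larger on day 2 in size, and that of mitotic genes on day 0, but neither day gave a call. On day 0 the replication median was -0.13 and the mitotic median -0.37, 0 members were called by limma and 2 were lower at an unadjusted p under 0.05 (2.88% of all genes). On that day 0.185% of all genes were called. Ube2c, the ubiquitin carrier of the anaphase-promoting complex, had the lowest day 0 value (-0.67 ± 0.32), Plk1 had -0.66 ± 0.30 and Mki67 -0.58 ± 0.37. Without wild-type day 0 replicate 2 the day 0 medians were 0.04 for mitotic genes, 0.02 for replication genes and 0.03 for all members. That fit kept knockout day 0 replicate 2, so it set unlike replicates against each other. Within the day 0 replicate 1 pair the medians were -0.27 for mitotic genes, -0.08 for replication genes and -0.13 for all members. Within the replicate 2 pair they were -0.52, -0.1 and -0.35. Without knockout day 0 replicate 1 the median of all members was -0.04.

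On day 2 all 17 replication genes were negative, with a median of -0.49, and in 15 of them both knockout arrays lay under both wild-type arrays. Over the 50 members 36 did not overlap and were lower, against 18.9% of all genes, 22 were lower at an unadjusted p under 0.05 (4.45% of all genes), and 0 were called by limma (0.266% of all genes were). Mcm6 read 7.91 and 7.99 in wild-type and 7.31 and 7.09 in knockout cells (-0.75 ± 0.13, adjusted p = 0.066). Ccne1 read 6.48 and 6.44 against 5.82 and 5.77 (-0.66 ± 0.12, adjusted p = 0.074), and Pcna 9.91 and 9.76 against 9.19 and 8.97 (-0.75 ± 0.15, adjusted p = 0.13). Each of these 3 had its knockout arrays clearly below the wild-type ones. Cdc6 had -0.77 ± 0.20, Rrm2 -0.61 ± 0.21 and Top2a -0.89 ± 0.28, with adjusted p from 0.31 to 0.48. The mitotic median of day 2 was -0.31, with Kif11 at -0.58, Aurkb at -0.61, Cdc20 at -0.10 and Cenpf at 0.01.

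**Figure D3:**
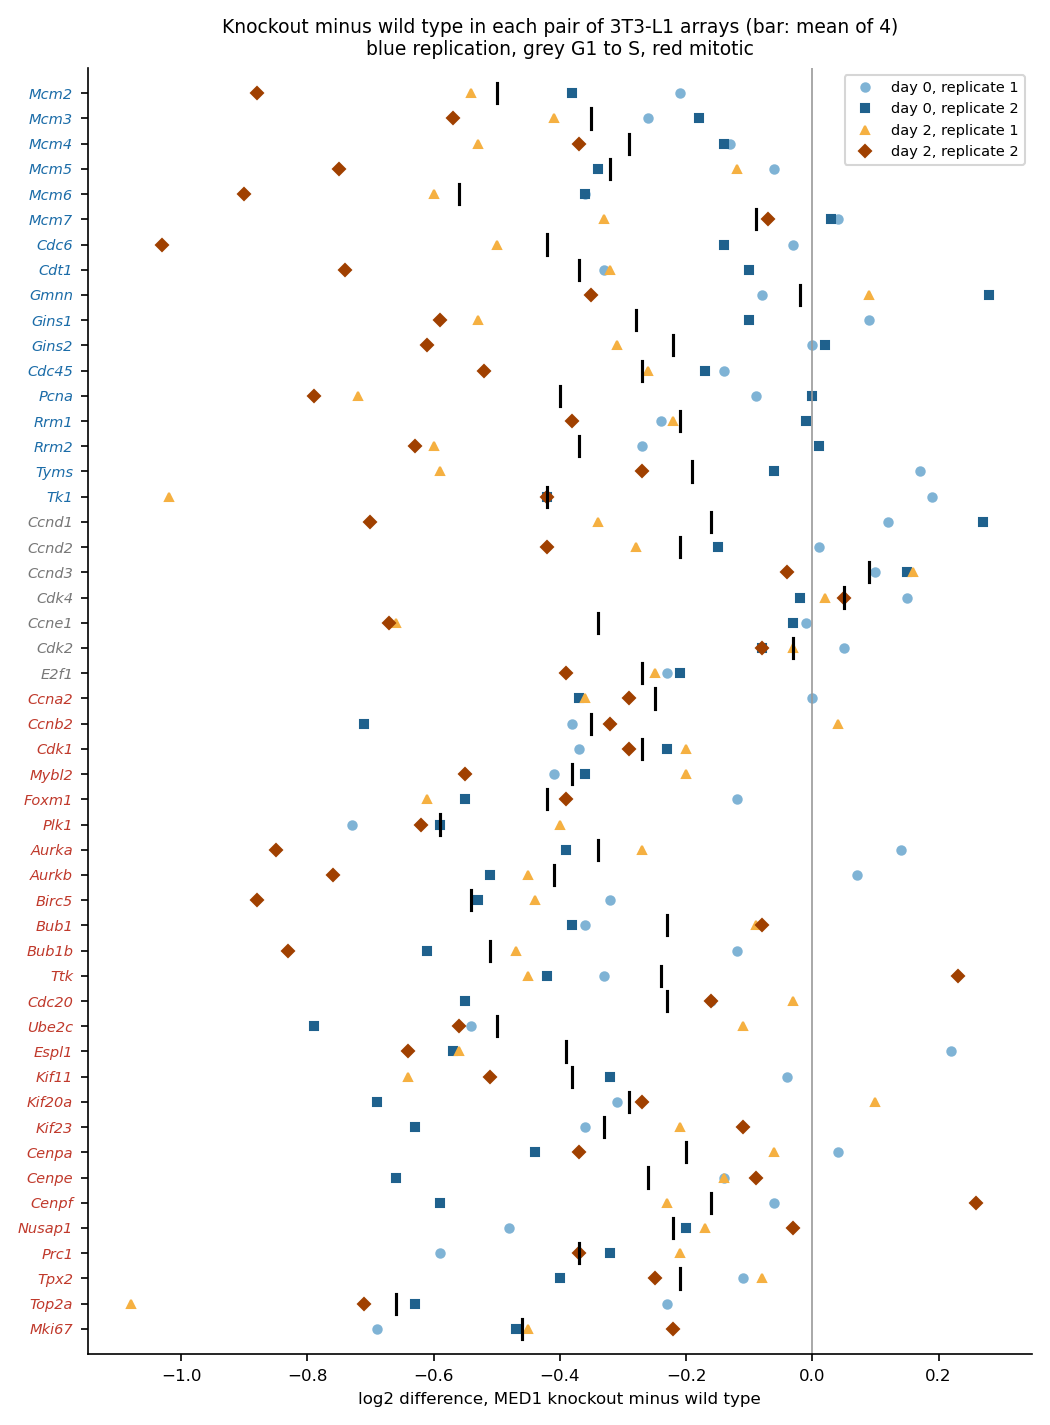
Log2 difference, knockout minus wild type (x axis), of each of the 50 genes (y axis, coloured by class) in each of 4 pairs of cell arrays (symbols), with a bar at the mean of the 4. The bars lie left of 0 for 48 genes. The day 2 pairs, in orange and brown, lie furthest left for many replication genes.

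Related genes outside the list were read in the same pairs. Of 32 other replication genes 26 were negative over the pairs (median -0.18) and 0 were called, with 12 lower and 1 higher at an unadjusted p under 0.05. Of 40 other mitosis genes 38 were negative (median -0.24), 0 were called, and 20 were lower and 1 higher unadjusted. Of 13 E2F and DREAM genes 10 were negative (median -0.09) and 0 were called, with 3 lower unadjusted. Among 10 CDK inhibitors and pocket proteins, which hold the cycle back, 0 were called, 1 was lower unadjusted and the median was -0.02. With the day, 4 of the 32 other replication genes rose in wild-type cells: Cdc7, the kinase that fires origins (0.78), Chaf1a, which packs new DNA into chromatin (0.75), Pole, a replicative polymerase (0.74), and Dut (0.63). Tfdp1, a partner of E2F proteins, rose by 0.60, and the CDK inhibitor gene Cdkn2a fell by 0.65 (fold change -0.65 ± 0.17, adjusted p = 0.049). In knockout cells Pold2 fell (-0.56 ± 0.12, adjusted p = 0.028) and no gene of these 4 lists rose. The fat genes Pparg and Fabp4 moved with day and genotype as well: Pparg had 2.02 ± 0.13 with the day in wild-type cells and -2.01 ± 0.13 with the knockout on day 2.

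In E17.5 brown fat the direction was the opposite: cell cycle genes were higher in the Med1 knockout. Of 50 members 49 had a positive fold change, with a median of 0.67 (1.59-fold) against -0.01 for all genes, of which 46.1% were positive. The test called 15 members higher (30%, against 0.658% of all genes) and none lower. In 43 of 50 (86%, against 8.56% of all genes) every knockout array lay above every control array, and 45 were higher at an unadjusted p under 0.05, against 10.9% of all genes. Replication genes had a median of 0.74, mitotic genes 0.67 and G1 to S genes 0.37. In whole tissue more dividing cells and more RNA per cell cannot be told apart.

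These calls were all close to the threshold. Their adjusted p ran from 0.041 to just under 0.05, and with any 1 of the 7 arrays left out limma called 0 members and 0 of all genes. The sizes moved little: the median of the members lay between 0.56 and 0.73 in those 7 fits, with 43 to 45 members higher at an unadjusted p under 0.05. The lowest median came without control replicate 3, which held the lowest control value for 34 of the 50 genes, and knockout replicate 4 held the highest knockout value for 35.

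Among the replication genes 6 rose. Mcm6 read 7.01, 6.94 and 6.81 in controls and 8.02, 8.0, 7.58 and 8.19 in knockouts (1.03 ± 0.14, adjusted p = 0.046). Rrm2 read 6.91, 7.21 and 6.67 against 7.85, 7.96, 7.86 and 8.20 (1.03 ± 0.14, adjusted p = 0.046). It had 2 rows with its symbol alone, and the one with the higher mean is used. Its value ran from 0.72 to 1.03 over 6 other settings of the processing. Tk1 read 7.12, 7.65 and 7.03 against 8.30, 8.14, 8.34 and 8.39 (1.03 ± 0.15, adjusted p = 0.046). In all 3 every knockout array lay above every control array, with knockout replicate 3 the lowest for Mcm6. Cdt1 rose by 0.78, Mcm5 by 0.76 and Rrm1 by 0.75. The other helicase subunits had values between 0.71 (Mcm7) and 0.86 (Mcm4) without passing the test, Pcna had 0.64 ± 0.19 (adjusted p = 0.13) and Tyms 0.62 ± 0.17 (adjusted p = 0.11). Gmnn, geminin, the inhibitor of Cdt1, was the one member with a negative value (-0.23 ± 0.13, adjusted p = 0.37), with 5.80, 5.56 and 5.74 in controls and 5.64, 5.42, 5.18 and 5.64 in knockouts.

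Of the G1 to S regulators Ccnd2 and Cdk4 rose. Ccnd2 read 8.02, 7.63 and 7.39 in controls and 8.58, 8.69, 8.63 and 8.94 in knockouts (1.03 ± 0.16, adjusted p = 0.046). Cdk4, the kinase that D cyclins activate, read 8.93, 8.99 and 8.91 against 9.59, 9.51, 9.34 and 9.33 (0.50 ± 0.08, adjusted p = 0.046). No array overlapped between the groups for these 2 genes. Ccnd1 overlapped between the groups (0.06 ± 0.17, adjusted p = 0.87). Ccnd3 had 0.43, Cdk2 0.37, Ccne1 0.35 and E2f1 0.14, none of them called.

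Of the mitotic genes 7 rose, and all 26 had positive values. Birc5 had the highest fold change of the 50 genes, with 5.18, 5.67 and 4.80 in controls and 6.53, 6.31, 6.41 and 6.57 in knockouts (1.24 ± 0.19, adjusted p = 0.046). Bub1, a spindle checkpoint kinase, read 6.47, 6.23 and 6.16 against 7.34, 7.23, 6.99 and 7.63 (1.01 ± 0.15, adjusted p = 0.046). Aurka, the centrosome kinase, rose by 0.91, Top2a by 0.88, Kif11 by 0.82 and Tpx2, which activates Aurka on the spindle, by 0.58. Ube2c had the lowest adjusted p of the list (0.041) with a smaller change, 7.09, 7.16 and 6.93 in controls and 7.64, 7.60, 7.67 and 7.74 in knockouts (0.60 ± 0.07). Its 4 knockout arrays lay within 0.14 of each other. The cyclins and their kinase were not called: Ccna2 had 0.76 (adjusted p = 0.066), Ccnb2 0.73 (0.099) and Cdk1 0.70 (0.096). Plk1 had 0.81 (0.06), Foxm1 0.72 (0.13), Cdc20 0.67 (0.074), Aurkb and Mki67 0.64 (0.069 and 0.089), Cenpf 0.56 (0.18) and Mybl2 0.28 (0.097). Espl1, separase, had the smallest mitotic value (0.27 ± 0.14, adjusted p = 0.35).

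Neighbouring cell cycle genes had the same direction in E17.5 brown fat. All 40 other mitosis genes were positive (median 0.65) and 8 rose, among them Melk (0.91), Kif22 (0.88), Ect2 (0.84) and Anln (0.71). Of 32 other replication genes 28 were positive (median 0.50), and Lig1, the ligase that joins Okazaki fragments (0.75), and Pola2 (0.56) rose. E2f8, an E2F family member that is itself a cell cycle gene, rose by 0.77. None of 10 CDK inhibitors and pocket proteins was called, with 2 higher and 2 lower at an unadjusted p under 0.05. Cdkn1a had -0.46 and Cdkn1c 0.80.

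Markers of several other cell types moved with the same groups. All 8 skeletal muscle markers were higher in every knockout array (median 1.20, 0 called by limma, 8 at an unadjusted p under 0.05), with a mean of 6.64 to 8.16 in controls and 8.59 to 8.88 in knockouts. Control replicate 3 was the lowest of them, at 6.64. All 6 fibroblast markers were positive, Col1a1 (0.60) and Col3a1 (0.63) rose, and their mean was 8.17 to 8.75 in controls and 8.94 to 9.16 in knockouts. All 7 adipocyte markers had negative values (median -0.55, 0 called, 7 lower unadjusted, 6 without overlap), with a mean of 9.59 to 9.98 in controls and 9.15 to 9.38 in knockouts. Brown adipocyte markers were lower in all 6 cases, Ucp1 (-3.14) and Dio2 (-1.66) fell, and their mean was 8.27 to 9.10 against 6.75 to 7.42. Of 5 macrophage markers all were positive (median 0.18, 0 called, 2 unadjusted). The 4 endothelial markers did not move as a list (median -0.10, 0 called, 0 unadjusted). The erythroid, T cell and epidermis lists had medians of 0.04, -0.12 and -0.17, with 0 called. No muscle, fibroblast or brown fat marker was under the lower quartile of any E17.5 array. The part of cell composition in the cell cycle result was not tested.

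**Figure D4:**
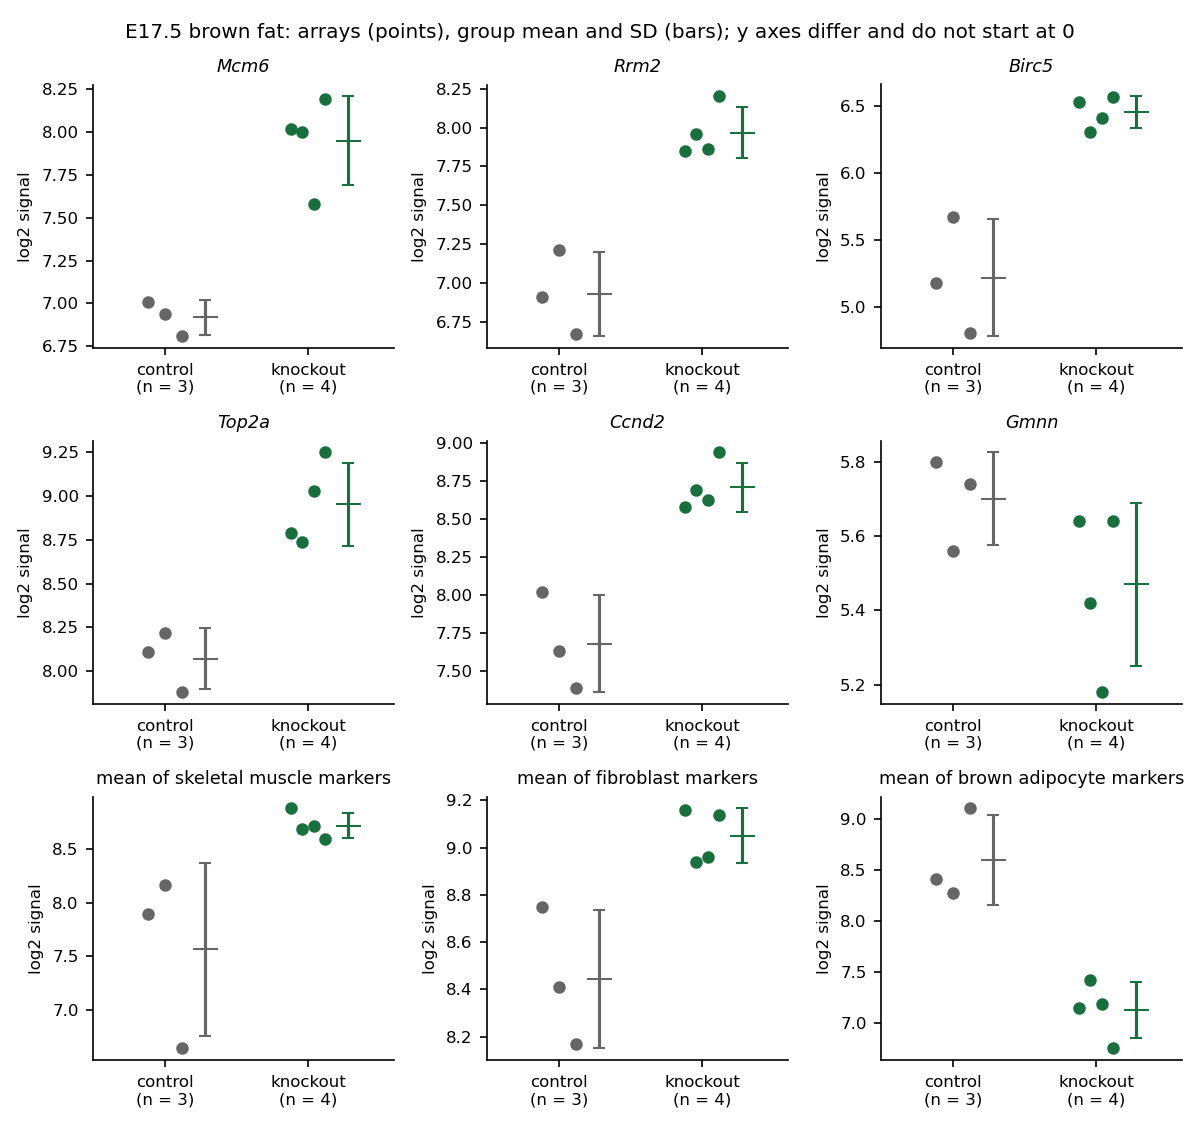
Log2 signal (y axes, which differ and do not start at 0) in E17.5 brown fat of control (n = 3) and knockout (n = 4) arrays, as points with the group mean and SD beside them, for 6 cell cycle genes and the means of 3 marker lists. Mcm6, Rrm2, Birc5, Top2a and Ccnd2 are separated between the groups, Gmnn overlaps, and the muscle and fibroblast means are higher and the brown adipocyte mean lower in knockouts.

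In adult brown fat most values were small, and they were mixed in sign. With 2 arrays a group 0 members were called (limma, 0.0271% of all genes), and 7 were higher and 3 lower at an unadjusted p under 0.05, against 7.75% and 5.83% of all genes. Of 50 members 33 were positive (50.5% of all genes were), with a median of 0.09 against 0 for all genes, and 16 were higher and 5 lower without overlap, against 21.8% and 20.1% of all genes. The levels were low in this tissue: from 26 to 31 of the 50 genes lay under the middle gene of each adult array, and 3 to 6 under the lower quartile. Low signals such as those of Birc5 (1.75 to 2.02) and Bub1 (1.84 to 2.35) leave little to compare.

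The largest adult differences were those of 2 D cyclins and Gmnn. Ccnd2 read 5.83 and 5.74 in controls and 7.57 and 7.06 in knockouts (1.54 ± 0.21, adjusted p = 0.081). Ccnd1 read 3.29 and 3.24 against 5.85 and 3.99 (1.65 ± 0.59, adjusted p = 0.32), where most of the difference lay in 1 knockout array. Gmnn read 4.45 and 4.69 against 3.35 and 3.37 (-1.21 ± 0.15, adjusted p = 0.075). The groups did not overlap in any of the 3. Mki67 had 0.68 ± 0.18 (3.62 and 3.20 against 4.12 and 4.05, adjusted p = 0.21), Cenpa, the centromere histone, -0.55 ± 0.15 (0.21) and Cdk4 -0.49 ± 0.16 (0.28). Pcna had 0.50, Top2a 0.49, Mcm5 0.37, Mcm6 0.33, Tyms 0.30, Plk1 0.15, Kif11 and Ccne1 0.14, Cdc20 0.12, Cenpf 0.04, Aurkb 0.03, Ccna2 0.00, Rrm2 -0.03, E2f1 -0.09, Foxm1 -0.13, Ccnd3 -0.17 and Cdk1 -0.35, none of them called.

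Immune and fibroblast markers moved in the adult tissue too. All 5 macrophage markers were higher in both knockout arrays (median 1.36, 0 called by limma, 5 unadjusted), with a mean of 5.56 to 5.86 in controls and 7.09 to 7.18 in knockouts. All 6 fibroblast markers were higher as well (median 0.75, 0 called, 6 unadjusted), with a mean of 7.06 to 7.23 in controls and 7.89 to 8.09 in knockouts. All 6 brown adipocyte markers had negative values (median -1.01, 0 called, 3 unadjusted). The part of these cells in the D cyclin and Mki67 values was not tested.

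Set against each other in 1 fit of 11 arrays, the adult knockout effect was lower than the embryonic one for 47 of 50 members (47.7% of all genes), with a median difference of -0.59 against 0.01 for all genes. The test called 5 members lower, 10% of the list, against 0.703% of all genes. Tk1 had -1.18 ± 0.25 (adjusted p = 0.04), with 1.03 at E17.5 and -0.16 in the adult. Cdk4 had -0.99 ± 0.16 (0.014), with 0.50 and -0.49, and Ube2c -0.79 ± 0.17 (0.042), with 0.60 and -0.19. For Cenpa the difference was -0.94 ± 0.19 (0.033), with 0.38 and -0.55, and for Gmnn -0.98 ± 0.20 (0.038), with -0.23 and -1.21. Cdk4 kept its call without each of the 11 arrays in turn. The other 4 were called in 1 to 3 of those 11 fits each. Low adult signals leave less room for a fold change: 21 to 25 of the 26 mitotic genes and 4 to 6 of the 17 replication genes lay under the middle gene of the adult arrays (3.17 to 3.19). Among the 5 called genes, Ube2c (2.42 to 2.86) lay under that level in every adult array. Cenpa lay under it in both knockout arrays (2.73 and 2.54) and close to it in controls (3.27 and 3.11). Tk1 (3.57 to 3.96) and Gmnn (3.35 to 4.69) lay above it, and Cdk4 (5.97 to 6.65) well above it. How far low signal sets the smaller adult values was not tested. The experiments also differ in age, Cre line, control genotype and normalization, which cannot be told apart.

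**Figure D5:**
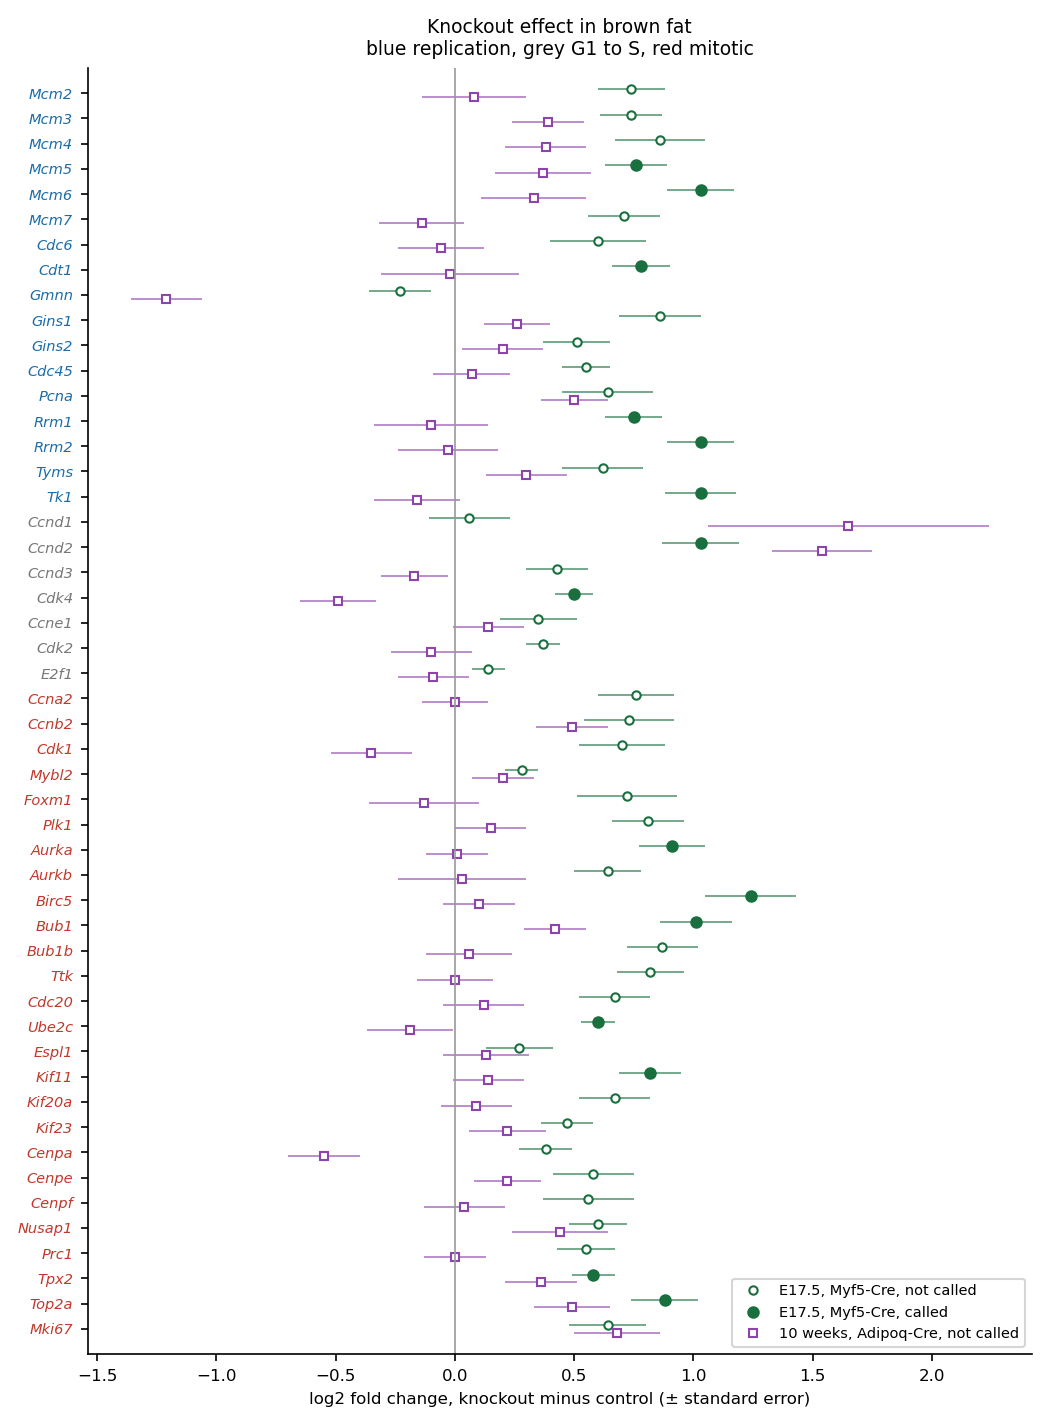
Log2 fold change, knockout minus control (x axis, with standard error), of each of the 50 genes (y axis, coloured by class) in E17.5 brown fat (circles) and adult brown fat (squares), filled where the adjusted p is under 0.05. Nearly all circles lie right of 0, 15 of them filled, while the squares lie on both sides of 0, with Ccnd1 and Ccnd2 furthest right and Gmnn furthest left.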

How the data were processed

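RNA of 19 samples was measured on Affymetrix whole-transcript arrays, prepared with the GeneChip WT PLUS kit per the labels' protocols. The authors deposited 1 table of log2 values, made with RMA in Transcriptome Analysis Console software, as far as the submitters' processing notes name tools. No source used here gives its build or annotation. Of 41345 rows, those with exactly 1 gene symbol were kept, and the row with the highest mean over 19 arrays stood for a gene, giving 22180 genes, with dim ones kept.

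Groups came from titles. The tests were lmFit and eBayes of limma 3.58.1 in R 4.3.3, two-sided, adjusted by Benjamini-Hochberg over all genes at 0.05. The genotype comparison had the 4 pairs as a block, day comparisons shared a fit of 4 groups, and each brown fat experiment had its own fit. The fits were tested on simulated data. Genes were named as called members, the 2 largest changes of a class, and a fixed panel. The members and lists were chosen with earlier results of these data known. Alternatives were another summary of rows, a filter on dim genes, a trended robust prior, repeated quantile normalization, other day labels, a replicate block, 1 fit of 19 arrays and leaving out arrays. The number of arrays limits the precision.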

Additional observations from a re-analysis of the deposited data

Results flagged for a closer look

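For 5 members the knockout effect in brown fat differed between the adult and E17.5 experiments by the test of the difference itself (limma, adult minus E17.5). The differences were -1.18 for Tk1, -0.99 for Cdk4, -0.98 for Gmnn, -0.94 for Cenpa and -0.79 for Ube2c. Tk1, Cdk4, Cenpa and Ube2c had a positive value at E17.5 and a negative one in the adult, and Gmnn was negative in both. No adult value was called by itself. For Tk1 (-0.16) and Ube2c (-0.19) the adult value was small and the adult groups overlapped. Each of the 50 genes was also tested for 1 outlying array among the 4 E17.5 knockouts (gap over range above 0.829), with 0 flagged. With 4 arrays this finds only large gaps in single genes. It does not see a shift shared by many genes, and knockout replicate 4 was the highest for 35 of the 50.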

How the results depend on the processing

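Leaving out 1 array (or 1 pair) at a time moved the members called as follows. Over the pairs 0 to 0 were lower, against 1 in the full fit. With the day in wild-type cells 4 to 12 were higher and 0 to 2 lower, and in knockout cells 1 to 4 were higher. At E17.5 0 to 0 were higher, against 15. Between the adult and E17.5 effects 1 to 6 were lower and 0 to 1 higher. The mitotic median with the day ran from 0.07 to 0.85 in wild-type and from 0.15 to 0.79 in knockout cells, on day 0 between genotypes from -0.77 to 0.04, and in the difference of days from -0.28 to 0.53. In the adult the median ran from 0.08 to 0.15 for members and from 0.11 to 0.28 for replication genes. On day 0 between genotypes it ran from -0.46 to 0.03 for members and from -0.27 to 0.02 for replication genes, turning sign without wild-type day 0 replicate 2. With a trended robust prior 5 members were lower over the pairs and 1 on day 2. Over the pairs that prior called 245 of all genes, against 64 in the main fit. With genes above the lower quartile only, 1 member was lower on day 2, and 26 were higher at E17.5. With quantile normalization repeated, 0 were lower over the pairs. With the source label and no block 0 were lower over the pairs. With the source label 0 were higher and 0 lower with the day in either genotype, the replication median was 0.1 in wild-type cells and -0.04 in the difference of days, and signs turned for Mcm7 (-0.03), Tyms (-0.08), Ccnd1 (0.31), Ccnd2 (0.06) and Ccne1 (-0.04) in wild-type and Ccnd1 (0.21) in knockout cells. In 1 fit of 19 arrays 1 was lower in wild-type and 4 higher in knockout cells with the day, 30 higher at E17.5, and 2 higher and 2 lower in the adult. That fit called 2351 of all genes with the day in wild-type cells, against 2012 in the main fit. The all-gene counts that go with the 26 and 30 at E17.5 and with the adult counts are not given here. Those member counts therefore cannot be set against the shares of all genes given above. Chosen after seeing the data, leaving out day 0 replicate 1 of both genotypes gave 3 higher and 0 lower in wild-type and 1 higher in knockout cells, and leaving out replicate 2 gave 0 lower and a mitotic median of 0.85 in wild-type, and 10 higher and 0.79 in knockout cells. The causes were not tested. With the replicate number as a block 0 members were higher at E17.5, 1 higher in the adult and 3 lower between the experiments; the block moved no other count of calls by more than 1.5 times. Over all genes, deviations of same-numbered arrays had correlations of 0.31, -0.02 and 0.11 at E17.5. They were 0.33 in the adult and 0.03 to 0.35 in cells. The last 2 have 2 numbers each, too few to show a pairing. Over the members alone they were 0.19, -0.39 and -0.28 at E17.5 and -0.11 in the adult. In cells the members had 0.78 between genotypes on day 0, 0.24 on day 2 and -0.37 to -0.06 across days. On day 0 the members' replicate difference was thus shared by the genotypes. The main genotype tests within a day had no replicate block, and with it 0 members were called on either day.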
